A study of Homo sapiens with 8 samples.

Results

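The subject is a set of 9 kinases, BTK and 8 others that carry a cysteine at the same place in the ATP pocket: EGFR, ERBB2, ERBB4, JAK3, BLK, BMX, TEC and TXK. They were chosen by symbol, and all 9 were found among the 58202 identifiers of the files. BTK had a second identifier, listed at 0 in all lines, and the identifier with the highest mean was used. RNA had been sequenced from 8 untreated human cancer cell lines chosen for expression of ERBB4, with 1 library per line, after 48 hours in culture plates. H522 (non-small cell), H661 (large cell) and H146 (small cell) are lung cancer lines, KLE and HEC59 endometrial, H716 from a colorectal adenocarcinoma of the cecum, 1321N1 from a brain astrocytoma and COV318 ovarian. The series asked how 4 lines that respond to ibrutinib differ from 4 that do not. The labels do not say which lines those are, so levels are described by line and by tissue.

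Ibrutinib is a drug that bonds covalently with a cysteine of BTK, a kinase of B-cell receptor signalling, and kinases with a cysteine at the matching place can be bound as well. EGFR, ERBB2 and ERBB4 are receptor kinases for ligands of the EGF and neuregulin families, and pair with each other or with ERBB3. BTK, TEC, TXK and BMX belong to the TEC family of cytoplasmic kinases, JAK3 signals from cytokine receptors that share the common gamma chain, and BLK is a SRC family kinase of B cells. BTK, BLK, TXK and JAK3 are known mainly from lymphoid cells.

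The shared codon was located in the GENCODE v29 transcripts (GRCh38, a later build than that of the files) by aligning each coding sequence with that of BTK. At 2 cysteine codons of BTK, codons 481 and 633, all 9 kinases had a cysteine codon. Of 11 relatives from the ERBB, JAK and SRC families, 10 also had one at the place of codon 633 and 0 at that of codon 481. The stretches around the latter are printed because this codon defines the set, with the codon in capitals and 5 codons on each side. The relatives ERBB3, JAK1 and SRC, which lack it, follow for contrast.
BTK: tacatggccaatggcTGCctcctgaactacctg
TEC: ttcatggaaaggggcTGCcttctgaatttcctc
TXK: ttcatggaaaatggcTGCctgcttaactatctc
BMX: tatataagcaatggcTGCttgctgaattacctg
ERBB4: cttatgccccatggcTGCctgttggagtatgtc
EGFR: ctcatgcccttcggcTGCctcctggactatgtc
ERBB2: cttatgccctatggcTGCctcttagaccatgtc
JAK3: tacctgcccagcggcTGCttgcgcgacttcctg
ERBB3: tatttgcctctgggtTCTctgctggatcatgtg
JAK1: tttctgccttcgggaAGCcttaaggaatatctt
SRC: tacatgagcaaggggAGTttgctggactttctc

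In the 8 kinases shown the codon was TGC, and the base triplet before it was ggc. BLK had a cysteine codon at codon 319 (exon 10 of 13), and its sequence is not printed. ERBB3 had TCT, JAK1 AGC and SRC AGT, which are serine codons. MAP2K7, a kinase of the JNK pathway, had TGC at the aligned place too, but is not among the 9. All the codons lie in coding exons. That of BTK is codon 481 in exon 15 of 19 (chrX:101356175-101356177, minus strand). In TEC it is codon 449 in exon 14 of 18 (chr4:48145202-48145204, minus strand), in TXK codon 350 in exon 11 of 15 (chr4:48080035-48080037, minus strand) and in BMX codon 496 in exon 15 of 19 (chrX:15542073-15542075, plus strand). Exon 20 holds the codon in all 3 receptors, as codon 803 of ERBB4 (chr2:211561981-211561983, minus strand), codon 797 of EGFR (chr7:55181398-55181400, plus strand) and codon 805 of ERBB2 (chr17:39724831-39724833, plus strand). In JAK3 it is codon 909 in exon 20 of 24 (chr19:17831752-17831754, minus strand). The sequences come from the reference and were not read in these lines.

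Levels are FPKM, which counts fragments per length of transcript and per total mapped, so genes can be set side by side. A gene is called detected where its FPKM reached 1, as 12205 to 13300 genes did per line. Relative depth, read from the steps of low values, ran from 1 in KLE to 2.67 in 1321N1, and absolute depth is unknown. Fewer cells with a transcript and less RNA per cell cannot be told apart in such bulk RNA. Mitochondrial genes held 4.37% to 16.1% of the summed FPKM. Only splits into 2 sets of 4 were tried, and in the best the steps set H522, H661, KLE and H716 against the rest. On average 20.2% of low values shared a common ratio in pairs within sets and 10.7% between sets. The sets were not clear-cut, as KLE and COV318 across them shared 17.6%, and H522 and KLE within 1 set 15.4%. No label says what these sets are. Tissue markers were in part absent. Of 4 lung genes only NKX2-1, in H661 alone, reached an FPKM of 1. SFTPC was listed at 0 in all 3 lung lines, CDX1 at 0 in H716 and OLIG1 at 0 in 1321N1. Of 4 cecum genes H716 had the other 3 detected, CDH17 at 137, CDX2 at 1.31 and VIL1 at 1.07. Of these 3, VIL1 was higher in the lung line H146, at 8.74, while CDH17 and CDX2 were detected in H716 alone. Of 5 glial genes 1321N1 had 1 detected, GFAP at 3.10. H146 had 2 detected, AQP4 at 4.46 and GFAP at 1.57, and KLE had AQP4 detected. The summed FPKM of the glial genes was 6.03 in H146 and 3.11 in 1321N1. VIL1 and the glial genes therefore did not single out the line of the matching tissue.

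Among the 9 kinases, RNA of the ERBB receptors predominated in all lines. ERBB4, EGFR and ERBB2 together made up 85.9% (H146) to 99.9% (1321N1) of the summed FPKM of the 9. The lines were chosen for expression of ERBB4, so its part in this was in some measure set by that choice. In H146 ERBB4 alone made up 80.7%. EGFR (0.00692) and ERBB2 (0.868) were there below the summed FPKM of BTK, TEC, TXK and BMX (2.34). Of the 72 values, 28 reached an FPKM of 1, and 20 reached 5. Detected in at least 1 line were 6 kinases: ERBB4 in 8 lines, ERBB2 in 7, EGFR in 6, TEC in 4, TXK in 2 and JAK3 in 1. BTK, BMX and BLK were detected in none. KLE and COV318 had 5 of the 9 detected, HEC59 and H661 4, H716 and 1321N1 3, and H522 and H146 2.

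**Figure D1:**
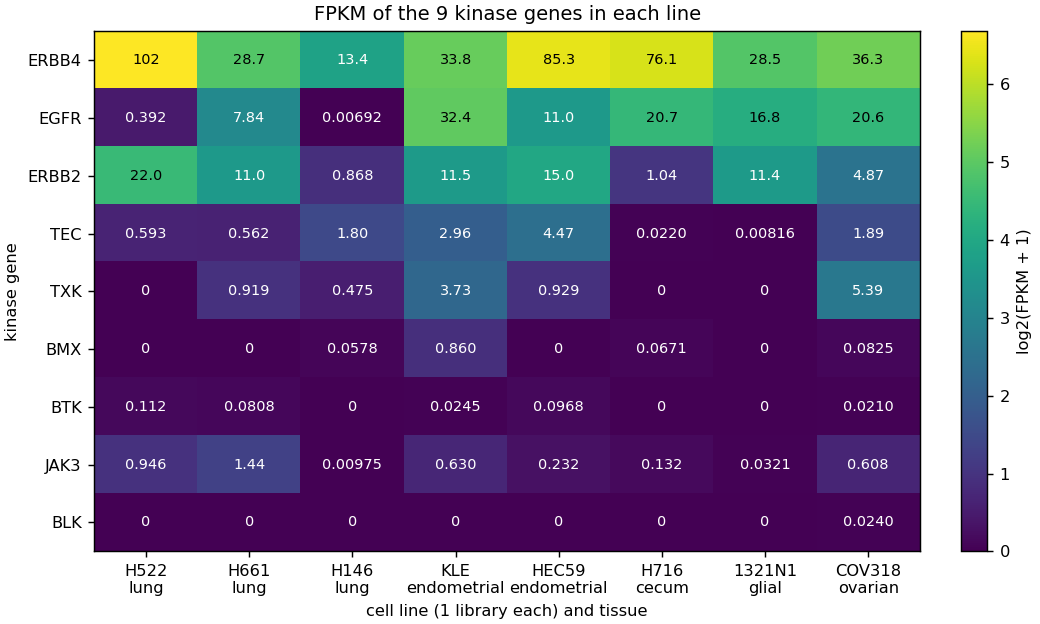
FPKM of the 9 kinases (rows) in the 8 lines (columns, with their tissue), printed in each cell and coloured by log2(FPKM + 1). ERBB4 is the brightest row in every line, and the rows of BTK, BMX and BLK stay below an FPKM of 1.

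ERBB4, a receptor for neuregulins, was at 102 in H522, 85.3 in HEC59, 76.1 in H716, 36.3 in COV318, 33.8 in KLE, 28.7 in H661, 28.5 in 1321N1 and 13.4 in H146. It was the highest of the 9 kinases in every line, and the top line exceeded the lowest 7.58-fold. Among detected genes of the same line, ERBB4 stood at percentile 67.2 in H146, from 77.1 in 1321N1 to 94.3 in H522 in 6 lines, and at 95.3 in HEC59. H522, HEC59 and H716 stood above the other 5 lines by a wide step. Neighbours such as H661 and 1321N1 cannot be ordered, because no line was sequenced more than once. HEC59 took the first place from H522 under both rescalings tried, at 105 against 96.2 after scaling to the same sum without mitochondrial genes.

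EGFR, the receptor for EGF, varied most. It was at 32.4 in KLE, 20.7 in H716, 20.6 in COV318, 16.8 in 1321N1, 11.0 in HEC59, 7.84 in H661, 0.392 in H522 and 0.00692 in H146. The SD of its log2(FPKM + 1) over lines was 1.90, more than that of 94.6% of the genes past the filter of the tests below. H522 and H146 were far below the other 6 lines. The antisense gene EGFR-AS1 was at 0 to 0.345, and since nothing states whether counting used strand, reads of the pair cannot be told apart.

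ERBB2, which has no known ligand of its own and acts as a partner of the other receptors, was at 22.0 in H522, 15.0 in HEC59, 11.5 in KLE, 11.4 in 1321N1, 11.0 in H661, 4.87 in COV318, 1.04 in H716 and 0.868 in H146. H716 and H146 stood apart at the low end. The balance of the receptors therefore differed between lines. The ratio of ERBB4 to EGFR was 1.04 in KLE, 1.70 in 1321N1, 1.76 in COV318, 3.66 in H661, 3.67 in H716, 7.75 in HEC59 and 259 in H522, and in H146 EGFR was too near 0 for a useful ratio. ERBB4 exceeded ERBB2 by 2.50-fold (1321N1) to 15.5-fold (H146) in 7 lines and by 73.2-fold in H716. ERBB3, the receptor without the cysteine, was at 10.7 in HEC59, 5.55 in H716, 3.57 in H661, 2.34 in H146, 1.39 in 1321N1, 0.818 in H522, 0.260 in COV318 and 0.205 in KLE, below ERBB4 in all 8 lines.

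**Figure D2:**
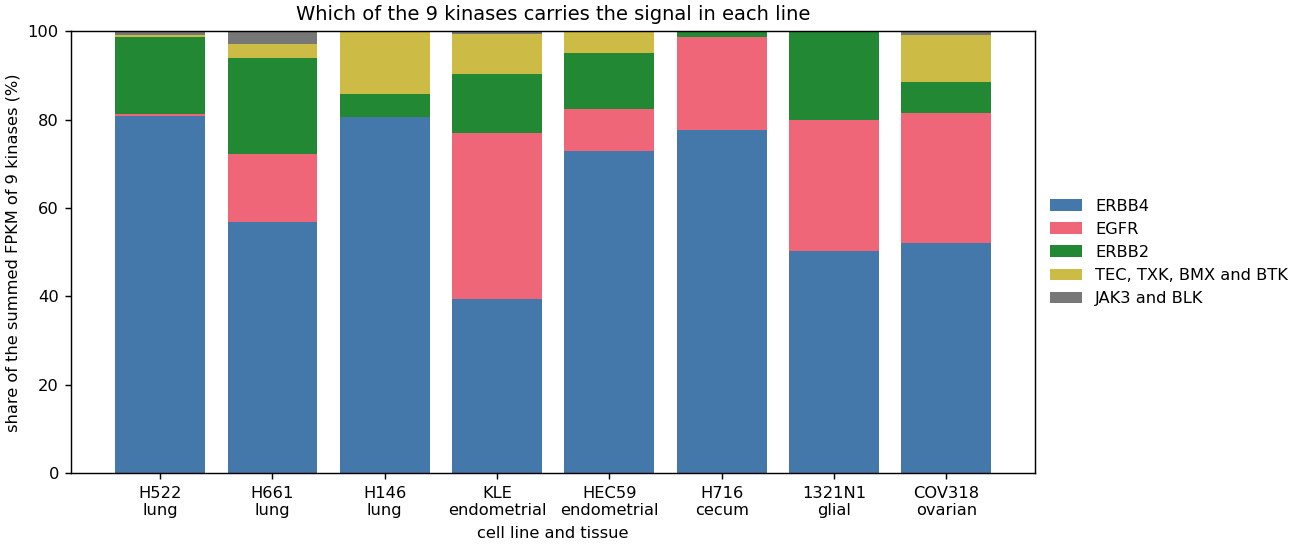
Share of each kinase or group (stacked, %) in the summed FPKM of the 9 kinases, by line. ERBB4 takes 39.4% in KLE, where EGFR takes 37.7%, and up to 80.9% in H522. The TEC family has its largest share in H146. Its summed FPKM there (2.34) is below that in KLE (7.57), COV318 (7.38) and HEC59 (5.49).

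BTK itself was barely measured. It was at 0.112 in H522, 0.0968 in HEC59, 0.0808 in H661, 0.0245 in KLE and 0.0210 in COV318, and listed at 0 in H716, 1321N1 and H146. Scaled for relative depth, KLE and COV318 had nearly the same value. How many fragments it stands for is unknown, because no counts were used and the program behind the FPKM is not named. H661, HEC59 and H522 stood at 4.46, 5.34 and 9.13 times the KLE value, with relative depth uncertain between the sets. Levels this low set no order among the lines. HEC59 took the highest place after either rescaling.

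TEC, the founding member of its family, was at 4.47 in HEC59, 2.96 in KLE, 1.89 in COV318, 1.80 in H146, 0.593 in H522, 0.562 in H661, 0.0220 in H716 and 0.00816 in 1321N1. The 2 endometrial lines were highest. In depth-scaled units of the 1321N1 value, the lowest, H716 stood at 1.27 and HEC59 at 276. TXK, known from T cells, was at 5.39 in COV318, 3.73 in KLE, 0.929 in HEC59, 0.919 in H661 and 0.475 in H146, and listed at 0 in H522, H716 and 1321N1. BMX, known from endothelial and myeloid cells, was at 0.860 in KLE and at 0.0825, 0.0671 and 0.0578 in COV318, H716 and H146, and listed at 0 in the other 4 lines. The last 3 of these values were within 1.13-fold of each other after scaling for depth, and KLE stood at 10.1 times the smallest. KLE and COV318 were thus the only lines with each of the 4 TEC family members above 0.

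TEC and TXK are neighbouring protein-coding genes on the minus strand of chromosome 4 in RefSeq (GRCh38.p14), 1532 bases apart, each with a start of its own. Over the 8 lines their log2(FPKM + 1) had rho = 0.781 and r = 0.643. With 1 line left out r ran from 0.558 without KLE to 0.801 without HEC59. For TEC, TXK was only in place 666 of 15649 genes by r, and for TXK, TEC in place 827. This is a description over lines that differ in depth. Both genes were at 0.929 or more in KLE, COV318 and HEC59, and both were near or at 0 in H716 and 1321N1. Their order differed: TXK exceeded TEC in COV318, KLE and H661, and TEC exceeded TXK in the other 5 lines.

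**Figure D3:**
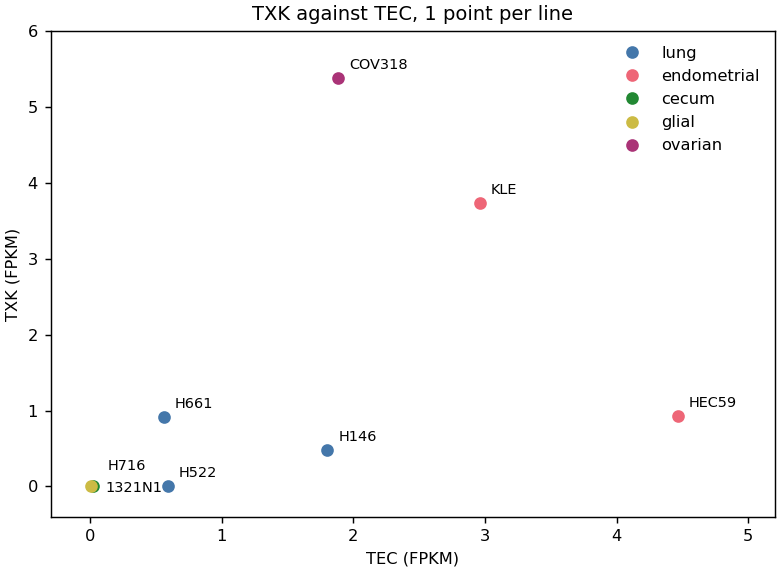
FPKM of TXK (vertical) against TEC (horizontal), 1 point per line, coloured by tissue. H716 and 1321N1 sit at the origin, HEC59 has high TEC with TXK at 0.929, and COV318 and KLE have the highest TXK.

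The 250 bases before the RefSeq start of each gene are printed because the pair lie side by side and have promoters of unlike base content. Capitals mark CG, the dinucleotide that can be methylated.
TEC promoter, chr4:48269839-48270088, minus strand: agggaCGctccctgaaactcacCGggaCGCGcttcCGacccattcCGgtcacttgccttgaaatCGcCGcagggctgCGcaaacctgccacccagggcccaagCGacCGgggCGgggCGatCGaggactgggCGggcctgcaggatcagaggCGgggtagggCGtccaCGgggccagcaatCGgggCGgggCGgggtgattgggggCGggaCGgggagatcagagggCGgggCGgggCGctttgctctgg
TXK promoter, chr4:48134251-48134500, minus strand: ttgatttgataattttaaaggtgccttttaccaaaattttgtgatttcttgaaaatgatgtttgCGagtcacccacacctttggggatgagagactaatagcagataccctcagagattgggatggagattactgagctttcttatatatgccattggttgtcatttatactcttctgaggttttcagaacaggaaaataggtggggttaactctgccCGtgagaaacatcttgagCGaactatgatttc
TEC had 26 CG and TXK 3, against a median of 11 over 35114 such windows. As many as in TEC occurred in 19.6% of windows, and as few as in TXK in 29.3%. The GC box GGGCGG, searched on both strands, occurred 7 times in TEC and 0 times in TXK, and 42.6% of all windows held it. Of the other members, BTK had 24 CG at its first listed start and 2 at its second, EGFR 25 and 1, and BMX 5 and 3. ERBB2 had 23, ERBB4 14 and JAK3 10. BLK had no entry in the table.

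JAK3 was highest in H661 at 1.44, followed by H522 at 0.946, KLE at 0.630, COV318 at 0.608, HEC59 at 0.232, H716 at 0.132, 1321N1 at 0.0321 and H146 at 0.00975. H661 and H522 are both lung lines, but the lowest line, H146, is also from lung. BLK was listed at 0 in 7 lines and at 0.0240 in COV318. Of 6 B-cell markers, only PAX5 was detected, at 5.76 in H716 and 5.79 in H146. None of 7 other markers of blood cells was detected, and PTPRC, the pan-leukocyte CD45 gene, did not exceed 0.967.

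Of the relatives without the cysteine, JAK1, TYK2, SRC, YES1 and FYN were above JAK3 and BLK in all 8 lines. JAK1, which pairs with JAK3 on cytokine receptors, was at 54.6 in COV318 and at 4.35 to 38.3 elsewhere, and exceeded JAK3 in all 8 lines. TYK2 was at 4.99 to 10.1 and JAK2 at 0.643 to 1.85. Of 7 SRC family kinases without it, 5 were detected in at least 1 line and SRC, YES1 and FYN in all. YES1, a widely expressed member, was at 9.59 in H716 to 143 in H661, and FYN at 5.24 in HEC59 to 83.2 in H146. MAP2K7, with the cysteine but outside the set, was at 1.21 in KLE to 3.24 in 1321N1.

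**Figure D4:**
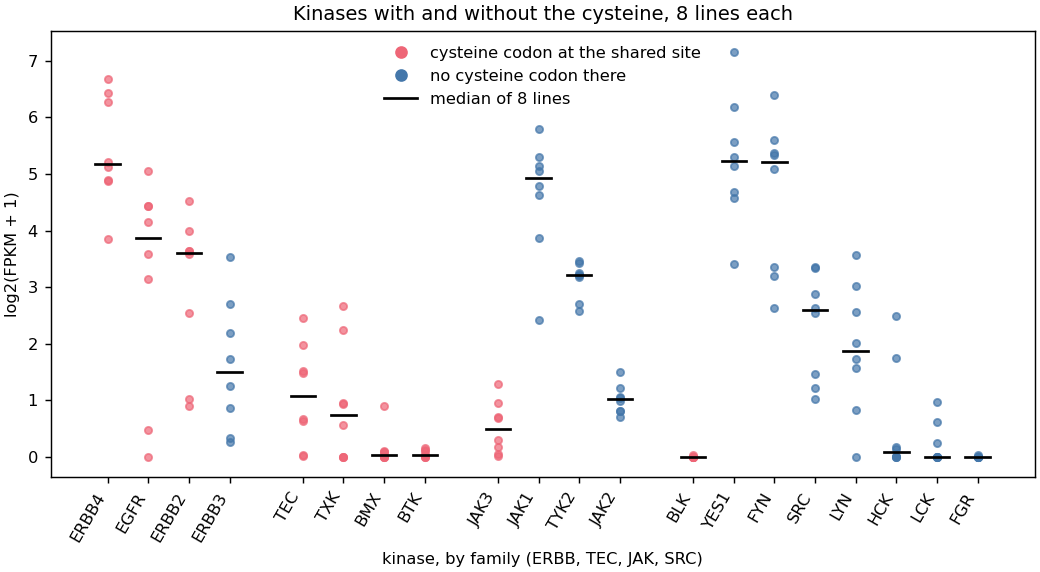
log2(FPKM + 1) of each kinase in the 8 lines (points) with the median (bar), by family; red marks a cysteine codon at the shared site and blue none. ERBB4 has the highest median of the ERBB family, and in the JAK and SRC families JAK1, YES1 and FYN lie far above JAK3 and BLK.

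Differences by tissue were tested on log2(FPKM + 1) with limma over the 15650 genes detected in 2 or more lines. EGFR, ERBB2, ERBB4, TEC and TXK passed this filter, and BTK, BMX, BLK and JAK3 did not. Lines of a tissue are different tumours, so the spread is that between lines. In the lung lines EGFR was at 0.00692 to 7.84 and in the other 5 at 11.0 to 32.4, with no overlap. Mean log2(FPKM + 1) of EGFR was 1.21 ± 1.69 (SD, n = 3) in lung against 4.33 ± 0.53 (SD, n = 5), a difference of -3.12 (SE 0.690). This did not pass over all genes (limma adjusted p = 0.306). The exact permutation p, two-sided, was 0.0179, the smallest that 56 arrangements allow. Lung lines all lay below the others in 2.23% of genes tested, and among the 5 kinases tested EGFR alone did so, while 0 of 5 lay all above, against 2.07%.

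The lung difference of EGFR rested on unequal lines. Without H661, the highest lung line, it was -4.09 (limma adjusted p = 0.0481), and over all 17 alternatives the adjusted p ran from 0.0481 to 0.643. Within the set of H522, H661, KLE and H716 it was -2.94, and within the other set, where H146 is the only lung line, -4.05. Summed neuroendocrine markers were at 340 in H146, 3.44 in H522 and 1.29 in H661, and at 0.312 to 82.9 in the other lines, and their part in the difference was not tested. ERBB4 (-0.44, SE 0.639), ERBB2 (0.03, SE 0.906), TEC (-0.27, SE 0.632) and TXK (-0.67, SE 0.676) overlapped between lung and other lines (limma adjusted p = 0.925 to 0.998). By limma 0 of the 5 kinases passed, against 0.0256% of all genes tested, and EGFR alone had an unadjusted p under 0.05 (0.00125), as did 930 of the 15650 genes.

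TEC was higher in both endometrial lines, at 2.96 and 4.47, than in the other 6, at 0.00816 to 1.89. Mean log2(FPKM + 1) of TEC was 2.22 ± 0.33 (SD, n = 2) against 0.73 ± 0.67 (SD, n = 6), a difference of 1.49 (SE 0.526). This did not pass over all genes either (limma adjusted p = 0.870, unadjusted p = 0.0190; adjusted p = 0.604 to 0.997 over 17 alternatives). The exact permutation p, two-sided, was 0.0357, the smallest that 28 arrangements allow. Endometrial lines all lay above the others in 2.43% of genes tested and all below in 4.53%. Among the 5 kinases TEC alone lay above and 0 lay below, and TEC alone had an unadjusted p under 0.05, as did 755 of the 15650 genes. The difference was 1.54 within the set of KLE and 1.44 within that of HEC59. Without HEC59 it was 1.26 and without KLE 1.72 on the same scale, with 1 line against 6. Summed endometrial and ovarian markers were at 128 in KLE, 253 in HEC59 and 120 in COV318, the line next in TEC, and at most 14.2 elsewhere; their part was not tested. EGFR (1.55, SE 1.28), ERBB2 (1.12, SE 0.949), ERBB4 (0.48, SE 0.716) and TXK (0.90, SE 0.741) overlapped (limma adjusted p = 0.954 to 0.964). These values rested on single lines: without KLE the difference of TXK was 0.25 and that of EGFR 0.81, and without HEC59 they were 1.55 and 2.28. The overlap ended for TXK without COV318 (1.29), for EGFR without HEC59 and for ERBB2 without H522 (1.48), with limma adjusted p = 0.763, 0.997 and 0.962. By limma 0 of the 5 passed, against 0.00639% of all genes.

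**Figure D5:**
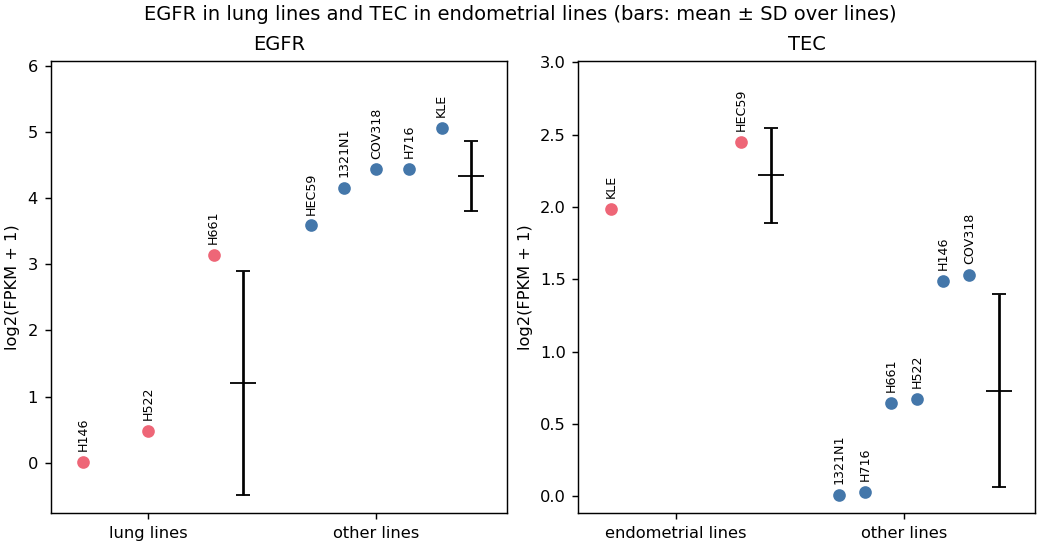
log2(FPKM + 1) of EGFR in the lung and other lines (left) and of TEC in the endometrial and other lines (right), 1 point per line, with mean ± SD over lines beside the points. The groups do not overlap in either panel, and the lung lines spread from H146 near 0 to H661 just below HEC59.

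For the 4 kinases outside the filter, exact permutation tests (two-sided) gave p = 0.411 for BTK, 0.286 for JAK3, 0.554 for BMX and 1 for BLK in lung lines, and 0.536, 1, 0.250 and 1 in endometrial lines. BTK and BLK were so near 0 that a difference was not detectable. BMX was at 0.860 in KLE, but at 0 in HEC59, the other endometrial line, and at most 0.0825 in the other lines. JAK3 was measured at up to 1.44, and its lines overlapped between tissues.

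Partners of these kinases were described from lists of pathway genes. All 16 ERBB adaptors and effectors were detected in at least 1 line and 14 in all 8. SHC1, an adaptor that links the receptors to RAS, was at 159 in H522 and 144 in 1321N1 and at 9.13 to 48.8 elsewhere. Of 9 negative regulators of the receptors 7 were detected in all lines. CBLB, a ubiquitin ligase for activated receptors, reached 321 in HEC59 and at most 18.8 elsewhere, and LRIG1, a membrane inhibitor of the ERBB receptors, 29.6 in HEC59, 8.93 in KLE and at most 5.33 elsewhere. LRIG1 was higher in the endometrial lines without overlap (log2 difference 2.43, SE 0.648), and did not pass over all genes (limma adjusted p = 0.620). CBL, another ubiquitin ligase for the receptors, was lower there without overlap (-0.72, SE 0.466), as was MAP2K1, the kinase MEK1 (-0.67, SE 0.372), and MAPK3, the kinase ERK1, was lower in the lung lines (-0.67, SE 0.316). None of these passed either (limma adjusted p = 0.825 to 0.954). Of 16 effectors tested, 1 lay all below in endometrial lines and 1 in lung lines. Of 9 negative regulators tested, 1 lay all above and 1 all below in endometrial lines. Over all genes tested, 2.43% lay all above and 4.53% all below in endometrial lines, and 2.23% all below in lung lines.

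Of 15 genes that act with TEC and BTK, 11 were detected in some line and PLCG1, VAV2, BCL10 and MALT1 in all 8. PLCG2, a phospholipase activated by BTK, was at 8.45 in HEC59, 5.71 in COV318, 2.62 in KLE, 2.55 in H661, 2.33 in H522 and 1.37 in H146, and at 0.0143 in H716 and 0.0179 in 1321N1, the lines that also had the lowest TEC. VAV3, a guanine nucleotide exchange factor, was at 113 in HEC59 and 27.1 in H716. BLNK, an adaptor of B cells, was detected in HEC59 alone at 3.27. Of 11 cytokine receptor and STAT genes 9 were detected in some line. IL2RG, the common gamma chain through which JAK3 signals, was at 3.77 in H146 and 1.54 in H716 and below 1 elsewhere. The lines with the highest JAK3, H661 and H522, had 0.214 and 0.178 of it. STAT3, a transcription factor activated by cytokine receptors, was the highest of the list in all 8 lines, from 11.4 in H146 to 55.3 in H522. The filter left all 16 ERBB effectors and 9 negative regulators, but only 9 of the 15 TEC and BTK genes and 8 of the 11 JAK3-list genes. By limma 0 of those left passed in either direction for lung or endometrial lines. At an unadjusted limma p under 0.05 there were 0 in lung lines and, in endometrial lines, CBLB and LRIG1. Over all 15650 genes tested, 930 had such a p in lung lines and 755 in endometrial lines. Over the genes left, the median difference was -0.22 for ERBB effectors, -0.53 for negative regulators, -0.19 for TEC and BTK signalling and 0.06 for the JAK3 list in lung lines, beside -0.02 over all genes. In endometrial lines these medians were -0.07, -0.35, 0.49 and -0.03, beside -0.11 over all genes.

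Levels of the 5 kinases past the filter were compared with each other across lines. Among their 10 pairs, r ran from -0.231 (ERBB4 with TXK) to 0.643 (TEC with TXK), and in 6 pairs it changed sign when 1 line was left out. The genes most like each kinase by Pearson's r over the 8 lines included LMAN2, C7orf60 and PSME1 for EGFR (r = 0.971 to 0.980), PLEKHM3, FYCO1 and TMEM63A for ERBB2 (0.969 to 0.980), and ARIH1 and MAN2A2 for ERBB4 (0.942 to 0.972). For TEC they were A1BG-AS1, ERMP1 and ESCO1 (0.962 to 0.975), and for TXK IL32, RBM11 and MTMR10 (0.955 to 0.968). IL32, a cytokine gene, was at 12.6 in COV318 and 9.52 in KLE and far lower in the other 6 lines. With the 3 nearest taken for each kinase, only 1 of 15 genes was by Spearman's rho again among the 3 nearest. These are nearest of 15649 genes over 8 lines that differ in depth, and are given as a description.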

How the data were processed

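The 9 kinases and all gene lists were chosen with earlier results of these data known. Values are FPKM per gene, as the authors deposited them, in 1 table per line. CASAVA 1.4, TopHat2 2.0.8, SAMtools 1.0 and the GRCh37 build are named in the submitters' processing notes; for the program that made the FPKM, its annotation and its use of strand, the sources used here give nothing. Levels were used unscaled, as log2(FPKM + 1) in tests. Tests used limma 3.58.1 (R 4.3.3, eBayes with trend), on genes whose FPKM reached 1 in 2 or more lines, lung lines against the other 5 and endometrial lines against the other 6, with Benjamini-Hochberg adjustment over all 15650 genes and a threshold of 0.05. Exact permutation tests were run for each kinase. Lines of a tissue are different tumours, so p-values measure the spread between these lines. Relative depth was read from the steps of low values, since no counts were used. The genes named are the 9 kinases, their listed relatives and partners, and the 3 nearest by Pearson's r to each kinase past the filter, of which some are not reported here. The limma step was tested on simulated data with the same SD for every gene. That does not show its power for genes that vary as much as EGFR. Alternatives were other pseudocounts, filters, scalings, a term for the sets of 4 lines drawn from those steps, and leaving out each line. Codons came from GENCODE v29 and promoters from RefSeq (GRCh38.p14), not from the build of the files; 8 of the 9 kinases had a promoter entry. Values over 100000 were left out of sums.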

Additional observations from a re-analysis of the deposited data

Results flagged for a closer look

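On the log2(FPKM + 1) scale the highest line of BMX, KLE, stood far from the other 7. Its gap to the next line was 0.8723 of the whole range, above the critical value of 0.526 for 8 lines. BLK was above 0 in COV318 alone, which fixes its gap at the whole range (1) whatever the value there, so it says nothing more. Both kinases are outside the filter of the tests and below an FPKM of 1 in all lines. Of the 5 kinases past the filter 0 had such a gap (at most 0.364, for ERBB4 in H146), beside 8.12% of all genes past it. Chance gives about 1 in 20 groups.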

How the results depend on the processing

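No paired analysis was possible because each line is 1 library of its own tumour and no number pairs lines across tissues. The limma differences and counts were recomputed under 17 alternatives. Fewer applied to the count of kinases detected, the nearest genes and the levels, and none to the exact tests. The count of genes past the threshold for lung lines was 4, and became 11 with a pseudocount of 0.1, 2 with a pseudocount of 5, 1 with no filter and 2 with a term for the sets from the low-value steps. It ran from 1 to 16 with 1 line left out: 1 without COV318, 2 without 1321N1 or HEC59, 8 without H661, 13 without H716 and 16 without H146. Of the kinases, 0 to 1 passed for lung lines with 1 line left out, the 1 being EGFR without H661. For endometrial lines the count was 1, and became 4 with a pseudocount of 5 and 20 with no filter. With 1 line left out it ran from 1 to 29: 5 without KLE or H146, 22 without HEC59 and 29 without COV318. Of the 15 genes nearest a kinase, 1 was found again by Spearman's rho and 3 to 7 with 1 line left out. The lung difference of ERBB2 (0.03) reversed to -0.066 with a pseudocount of 0.1, -0.039 with quantile normalization and -0.088 with a term for the sets from the low-value steps. With 1 line left out it ran from -0.73 without H522 to 1.08 without H146, and was below 0 without H661 (-0.26), H716 (-0.45) and COV318 (-0.07) too. That of ERBB4 (-0.44) ran from -1.21 without H522 to 0.20 without H146. That of TEC (-0.27) was 0.23 with a pseudocount of 0.1, and ran from -0.56 without 1321N1 to 0.045 without HEC59. The endometrial difference of ERBB4 (0.48) ran from -0.18 without HEC59 to 1.13 without KLE. The cause was not tested. The directions of EGFR and TXK in both comparisons, and of ERBB2 and TEC in endometrial lines, were the same under all 17, but their sizes moved. The lung difference of EGFR was -1.79 with a pseudocount of 5 and -4.68 with 0.1, and that of TXK (-0.67) was -0.30 with a pseudocount of 5 or without COV318. The endometrial difference of TEC was 0.59 with a pseudocount of 5 and 2.81 with 0.1. Scaling to the same sum moved the median lung difference over all genes from -0.02 to 0.13. The highest line was the same for 7 of the 9 kinases under both rescalings, and HEC59 replaced H522 for ERBB4 and BTK. Most values of BTK, BMX and BLK were at 0 or near the smallest depth-scaled value of the gene. BMX in KLE, at 10.1 times that value, and BTK in H661, HEC59 and H522, at 4.46 to 9.13 times, were not. How far depth limits these genes was not tested.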
